A study of Homo sapiens with 83 samples.

Results

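The SH2B family comprises 3 adaptor proteins, encoded by SH2B1, SH2B2 and SH2B3. Their transcripts were read by gene symbol from a table of 60237 genes in 2 human neuroblastoma cell lines, SHEP and SKNAS. SH2B2 was chosen by its TPM in MYC-ON against MYC-OFF, since it was far higher with activated N-MYC in both lines, and its paralogs SH2B1 and SH2B3 were taken along for contrast. That difference is therefore given below as a description with no test.

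All cells overexpressed N-MYC-ER, in which N-MYC is joined to the hormone-binding part of the estrogen receptor, and all received dexamethasone to synchronize their clocks. MYC-OFF cells were given ethanol and MYC-ON cells 4-hydroxytamoxifen (4OHT), which releases the fusion protein. No group received 4OHT without the fusion, so an effect of 4OHT itself cannot be told apart from that of N-MYC. RNA was taken at intervals of 4 h. Time is given as circadian time (CT), in hours from the addition of dexamethasone. SHEP had 28 libraries in each condition, made of 2 series of 14 CTs from CT24 to CT76. SKNAS had 1 series in each condition, with 14 MYC-OFF libraries (CT24 to CT76) and 13 MYC-ON libraries (CT24 to CT72). Libraries of 1 series came from 1 experiment, so p-values measure the spread between time points and, in SHEP, between 2 series.

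SH2B proteins carry an SH2 domain, which docks on phosphorylated tyrosines of activated receptors, beside a PH domain and a stretch through which they dimerize. SH2B1 strengthens signals from JAK2 and from the insulin and leptin receptors, and it is known for its part in body weight control and in neurite outgrowth. SH2B2, also called APS, is phosphorylated by the insulin receptor and brings in the ubiquitin ligase CBL. SH2B3, also called LNK, is best known as a brake on JAK2 and KIT signals in blood-forming cells. MYC proteins bind DNA with their partner MAX, preferring the letters CACGTG, the canonical E-box.

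The genes lie on 3 chromosomes, all on the plus strand (Gencode annotation, GRCh38). SH2B1 (ENSG00000178188) spans chr16:28846600-28874212, SH2B2 (ENSG00000160999) chr7:102285091-102321711 and SH2B3 (ENSG00000111252) chr12:111405923-111451623. The 3' end of SH2B3 overlaps the 3' end of ATXN2 on the opposite strand, which lies at base 111443485. Whether the quantification used strand is not given in the sources used here, so SH2B3 and ATXN2 reads from that stretch may not be separable. Below are the bases upstream of an SH2B2 start, shown because SH2B2 was chosen for its difference, and an E-box near the start of SH2B3, shown for contrast. The first is the 250 bases before the SH2B2 start that RefSeq gives (chr7:102289216-102289465, plus strand, GRCh38.p14), inside the gene as Gencode draws it. The second is chr12:111405634-111405699 (plus strand, GRCh38), upstream of the SH2B3 start that Gencode marks as MANE Select, the agreed reference transcript. Capitals mark a match to one of the motifs searched.
SH2B2 RefSeq, upstream: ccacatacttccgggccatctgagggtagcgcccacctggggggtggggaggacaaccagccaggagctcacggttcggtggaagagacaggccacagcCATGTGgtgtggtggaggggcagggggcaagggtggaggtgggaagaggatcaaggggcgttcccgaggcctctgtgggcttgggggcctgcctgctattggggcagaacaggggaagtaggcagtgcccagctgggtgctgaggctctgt
SH2B3 MANE Select, E-box: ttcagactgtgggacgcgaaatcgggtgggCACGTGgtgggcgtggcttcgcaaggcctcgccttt

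Windows of 250 bases before to 50 bases after each start were searched on both strands for CACGTG, which reads the same on both strands, and for the related E-boxes CACGCG and CATGTG. No matches overlapped each other. The RefSeq window of SH2B2 held 1 CATGTG, 151 bases before the start, and 11.1% of the 35116 RefSeq windows held that motif. The window at another SH2B2 start, at base 102285155, had no match.

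Within 2000 bases either side of the MANE Select start, SH2B1 had no CACGTG. SH2B3 had 2 of them, 259 bases before and 562 bases after its start. At least 1 was present at 43.5% of 19061 such starts in the genome, and at least 2 at 13.4%. A second SH2B3 start, at base 111418340, had a CACGTG 235 bases before it and a CACGCG 32 bases before it. Of 13 coding starts of SH2B1, the one at base 28863559 had a CACGCG 131 bases before it. Those at bases 28866635 and 28872253 had a CATGTG, 233 and 167 bases before them. CACGTG was found in 7.74%, CACGCG in 13.3% and CATGTG in 9.55% of 78577 windows at Gencode coding transcript starts. Binding was not measured here, and these matches are a description of the sequence only.

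SH2B2 was nearly silent in SHEP MYC-OFF and stood level with its paralogs in SHEP MYC-ON, and in SKNAS MYC-ON it stood far above them. Its levels are given in TPM, transcript abundances scaled to the same total in every library, which are divided by transcript length and so can be set side by side between genes. In SHEP MYC-OFF, SH2B2 lay between 0.575 TPM (CT32, series 1) and 3.32 TPM (CT56, series 2), with a median of 1.79 TPM. In SHEP MYC-ON, it lay between 13.6 TPM (CT68, series 2) and 39.2 TPM (CT76, series 2), with a median of 24.7 TPM. The means were 1.85 ± 0.711 TPM and 25.2 ± 5.59 TPM (SD, n = 28 each). The 2 conditions did not overlap, and the lowest MYC-ON library was 4.09 times the highest MYC-OFF library. As SH2B2 was chosen for this difference, that separation is a description, and the share of all genes so separated was not counted.

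In SKNAS, SH2B2 began higher. MYC-OFF libraries ran from 6.61 TPM (CT52) through a median of 10.1 TPM to 13.3 TPM (CT40), and MYC-ON libraries from 57.0 TPM (CT68) through a median of 92.5 TPM to 117 TPM (CT32). The means were 9.89 ± 2.21 TPM (SD, n = 14) and 90.0 ± 19.2 TPM (SD, n = 13). Again the conditions did not overlap, the lowest MYC-ON library being 4.28 times the highest MYC-OFF library. Here too the share of all genes so separated was not counted. The order of SH2B2 levels was thus SHEP MYC-OFF, SKNAS MYC-OFF, SHEP MYC-ON and SKNAS MYC-ON. No 2 of these 4 groups shared any part of their range. SKNAS MYC-OFF and SHEP MYC-ON were only just apart, at 13.3 TPM (CT40) against 13.6 TPM (CT68, series 2). This order partly restates the difference for which SH2B2 was chosen, and the share of all genes so ordered was not counted.

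**Figure D1:**
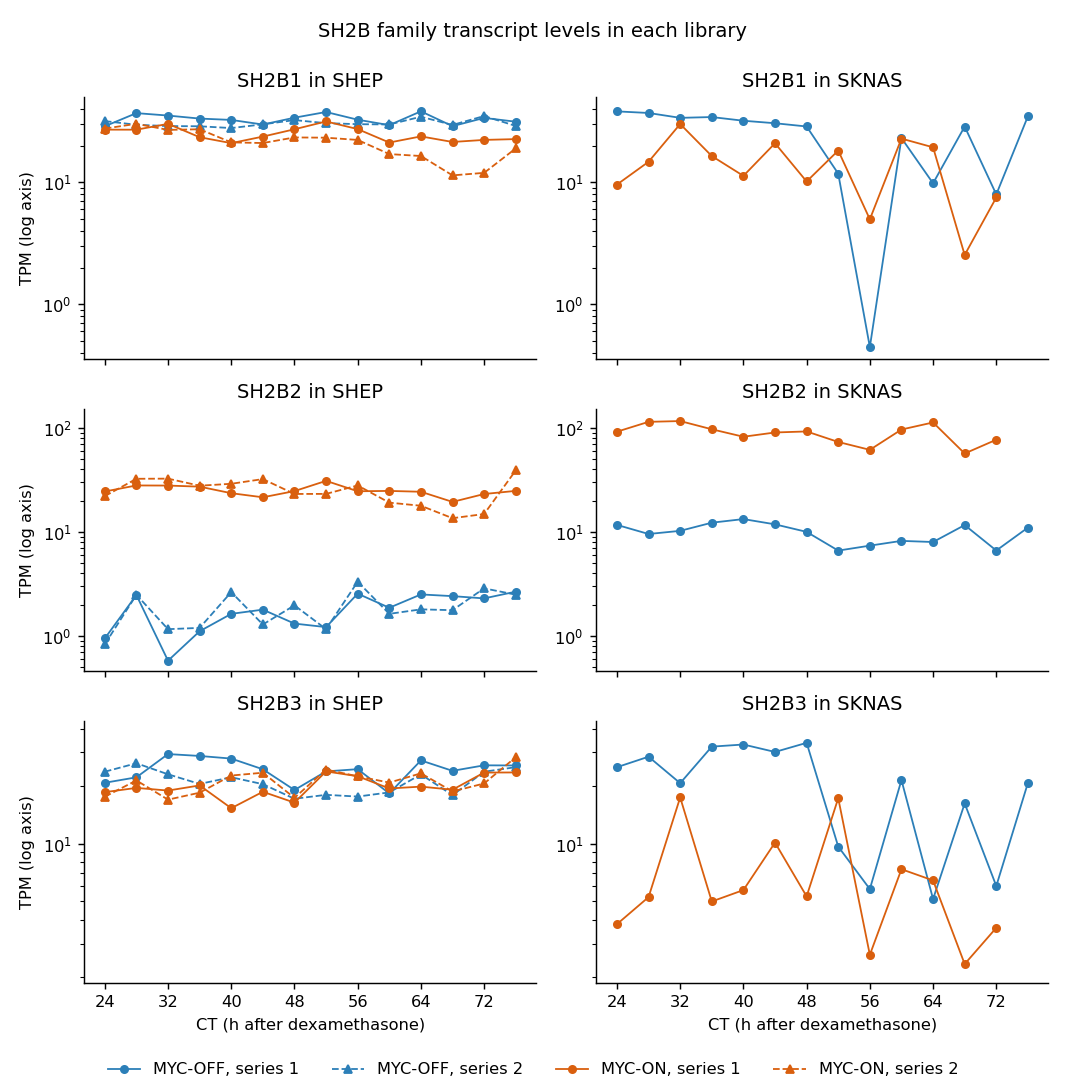
TPM of SH2B1, SH2B2 and SH2B3 (rows, log axis) against CT in hours after dexamethasone, in SHEP (left) and SKNAS (right). Each point is 1 library, blue for MYC-OFF and orange for MYC-ON, with circles and solid lines for series 1 and triangles and dashed lines for series 2. The SH2B2 conditions are apart at every CT, between 0.575 and 3.32 TPM against 13.6 to 39.2 TPM in SHEP, whereas those of SH2B1 and SH2B3 overlap in both lines.

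Taking MYC-ON against MYC-OFF at the same CT of the same series, SH2B2 was higher in 28 of 28 SHEP pairs and in 13 of 13 SKNAS pairs. The ratio had a median of 12.6 in SHEP, from 5.20 (CT72, series 2) to 48.7 (CT32, series 1), and a median of 9.28 in SKNAS, from 4.89 (CT68) to 14.2 (CT64). On the log2(TPM + 1) scale, which understates changes at low TPM, the difference was 3.21 (SE 0.086) in SHEP and 3.07 (SE 0.13) in SKNAS. With 0.1 TPM added in place of 1, the SHEP difference was 3.77. The difference ranked 2 among the 14362 genes tested in SHEP and 14 among the 13886 in SKNAS, as the choice of the gene would have it. In these comparisons 71.8% of genes in SHEP (33% higher, 38.9% lower) and 48.1% in SKNAS (13.7% higher, 34.4% lower) were called changed at a limma adjusted p of 0.05 or less with a log2 change of 0.15 or more. The median change over all genes was -0.0364 in SHEP and -0.287 in SKNAS.

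SH2B1, the JAK2-activating paralog, was lower in MYC-ON in most pairs. In SHEP MYC-OFF it lay between 27.8 and 38.1 TPM, with a median of 30.9 TPM, and in MYC-ON between 11.4 TPM (CT68, series 2) and 31.5 TPM, with a median of 23.2 TPM. The ranges overlapped, but 25 of 28 MYC-ON libraries lay below every MYC-OFF library, a trait not counted over all genes. MYC-ON was lower in 27 of 28 SHEP pairs (median ratio 0.737), a log2 difference of -0.47 (SE 0.063). In SKNAS, the range was 0.447 to 38.1 TPM in MYC-OFF (median 29.5 TPM) and 2.54 to 30.0 TPM in MYC-ON (median 14.7 TPM). These ranges overlapped almost throughout. MYC-ON was lower in 10 of 13 SKNAS pairs, with a log2 difference of -0.56 (SE 0.33) and ratios from 0.0888 (CT68) to 11.1 (CT56). The highest ratio rested on the MYC-OFF library at CT56, in which SH2B1 was at 0.447 TPM while SH2B2 was at 7.38 TPM and SH2B3 at 5.79 TPM. In that library 16241 genes were above 0 TPM, the fewest of any SKNAS library. Its median over genes was also the lowest in SKNAS MYC-OFF. Without that library the difference was -0.78, and with the library median as a covariate it took the opposite sign, at 0.15 (SE 0.23).

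SH2B3, the inhibitory paralog, stood at about the same level in both SHEP conditions and was lower in MYC-ON in SKNAS. In SHEP it lay between 17.2 and 29.4 TPM in MYC-OFF (median 23.4 TPM) and between 15.3 and 28.3 TPM in MYC-ON (median 20.03 TPM). The SHEP ranges overlapped over most of their length, with MYC-ON lower in 18 of 28 pairs (median ratio 0.908). The log2 difference of -0.14 (SE 0.050) came from series 1, at -0.28, while series 2 alone gave -0.0046. In SKNAS, SH2B3 ran from 5.13 to 33.7 TPM in MYC-OFF (median 21.2 TPM) and from 2.35 to 17.5 TPM in MYC-ON (median 5.30 TPM). MYC-ON was lower in 11 of 13 pairs (median ratio 0.336), and the log2 difference was -1.38 (SE 0.29). It was -0.65 (SE 0.094) with the library median as a covariate.

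**Figure D2:**
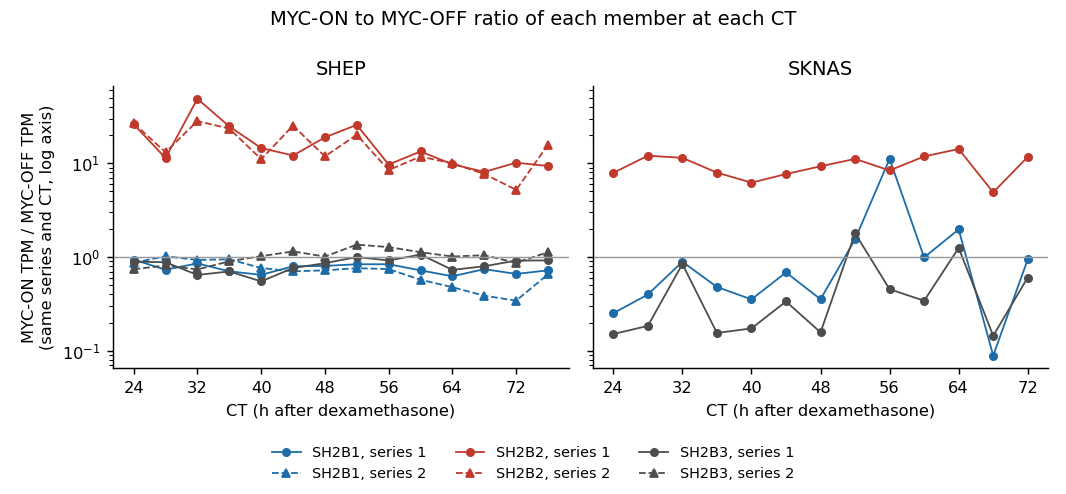
MYC-ON TPM divided by MYC-OFF TPM of the same series and CT (log axis) against CT in hours, for each member in SHEP (left) and SKNAS (right). The grey line is a ratio of 1, circles and solid lines are series 1, and triangles and dashed lines are series 2. SH2B2 stays between 5.20 and 48.7 in SHEP and between 4.89 and 14.2 in SKNAS, while SH2B1 and SH2B3 lie around or below 1 except at a few SKNAS CTs.

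SKNAS libraries differed in their overall distribution, and all members moved with it, SH2B2 with the lowest correlation. The median over genes of log2(TPM + 1) ran from 3.93 to 4.17 in the SHEP libraries. In SKNAS it ran from 2.97 to 4.38 in MYC-OFF and from 2.76 to 4.25 in MYC-ON, and it was at least 3.8 in 10 of 14 MYC-OFF but only 3 of 13 MYC-ON libraries. Over the SKNAS libraries, the Pearson correlation of a member's log2(TPM + 1) with the library median was 0.87 for SH2B1, 0.78 for SH2B2 and 0.99 for SH2B3 in MYC-OFF (n = 14). In MYC-ON it was 0.90, 0.58 and 0.97 (n = 13). Each library's points share that library's composition, and the median correlation over all tested genes was 0.86 in MYC-OFF and 0.85 in MYC-ON. SH2B2 lay below that median in both conditions, and SH2B3 above it.

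In the MYC-ON libraries with a median of at least 3.8, SH2B2 was at 93.9 ± 21.9 TPM (SD, n = 3), against 88.8 ± 19.4 TPM (SD, n = 10) in the others. SH2B3 was at 15.0 ± 4.18 TPM and 4.74 ± 1.62 TPM in the same libraries, and SH2B1 at 23.0 ± 6.19 TPM and 11.9 ± 6.38 TPM. In MYC-OFF, SH2B2 did differ by library median. It was at 10.99 ± 1.49 TPM (SD, n = 10) in the libraries of higher median and 7.16 ± 0.669 TPM (SD, n = 4) in the others. SH2B3 was at 26.21 ± 6.16 TPM and 6.65 ± 2.04 TPM in these MYC-OFF libraries, and SH2B1 at 32.03 ± 4.502 TPM and 7.496 ± 4.95 TPM. Each of the 3 members was without overlap between these sets of MYC-OFF libraries, and SH2B3 also in MYC-ON. The share of all genes so separated was not counted. With SKNAS restricted to libraries of that higher median, the MYC-ON minus MYC-OFF difference was 3.12 for SH2B2, -0.34 for SH2B1 and -0.86 for SH2B3. As CT was a factor and only CT32 and CT44 held such libraries of both conditions, these differences rested on those CTs. The SH2B2 difference there was close to the 3.07 over all SKNAS libraries, and those of its paralogs were smaller. What made the SKNAS medians vary was not tested.

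**Figure D3:**
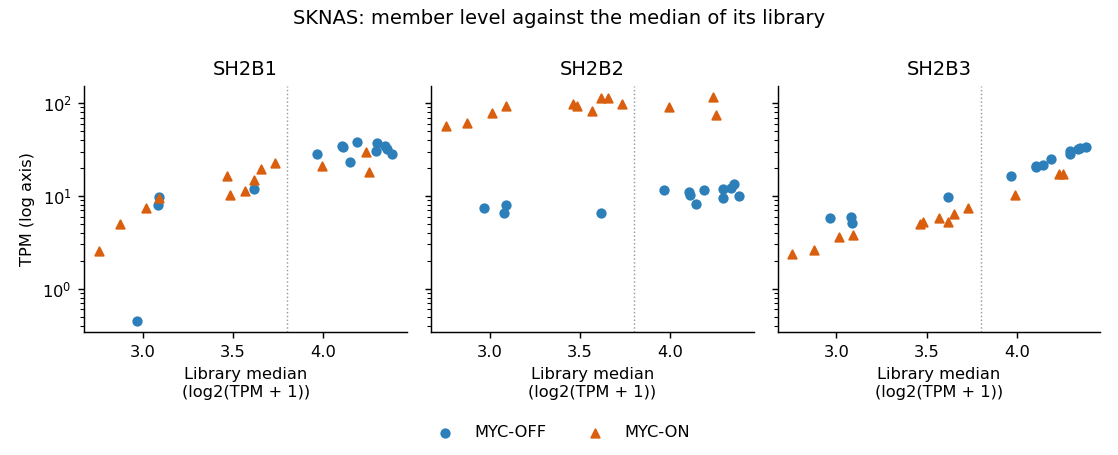
TPM of each member (log axis) against the median log2(TPM + 1) of its library, for the 14 MYC-OFF (blue circles) and 13 MYC-ON (orange triangles) SKNAS libraries. The dotted line marks a median of 3.8. SH2B3 climbs with the library median along a narrow band, while the SH2B2 conditions stay apart at every median, with 57.0 to 117 TPM in MYC-ON against 6.61 to 13.3 TPM in MYC-OFF.

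The makeup of the family changed with these shifts. In SHEP MYC-OFF, SH2B2 supplied 3.29 ± 1.26% of the summed TPM of the 3 genes, SH2B1 56.3 ± 3.52% and SH2B3 40.4 ± 3.60% (SD, n = 28). In SHEP MYC-ON the 3 were nearly equal, at 33.4 ± 4.70% for SH2B1, 36.3 ± 3.62% for SH2B2 and 30.4 ± 5.47% for SH2B3. SH2B1 had the highest level of the 3 in 28 of 28 SHEP MYC-OFF libraries. In SHEP MYC-ON the highest was SH2B2 in 13 libraries, SH2B1 in 9 and SH2B3 in 6, so that no member led throughout. In SKNAS, the share of SH2B2 went from 21.8 ± 11.5% (n = 14) to 81.8 ± 7.36% (n = 13). It ran from 12.7% to 54.2% over the MYC-OFF libraries and from 67.5% to 92.1% over the MYC-ON libraries. SH2B1 and SH2B3 were far lower in SKNAS libraries of low median, which were more frequent in MYC-ON, and these shares were not adjusted for that. SH2B1 led in 11 of 14 SKNAS MYC-OFF libraries and SH2B2 in 13 of 13 MYC-ON libraries. The family total was 56.4 ± 5.46 TPM and 69.0 ± 10.1 TPM in SHEP, and 55.5 ± 23.8 TPM and 112 ± 28.1 TPM in SKNAS, in MYC-OFF and MYC-ON.

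**Figure D4:**
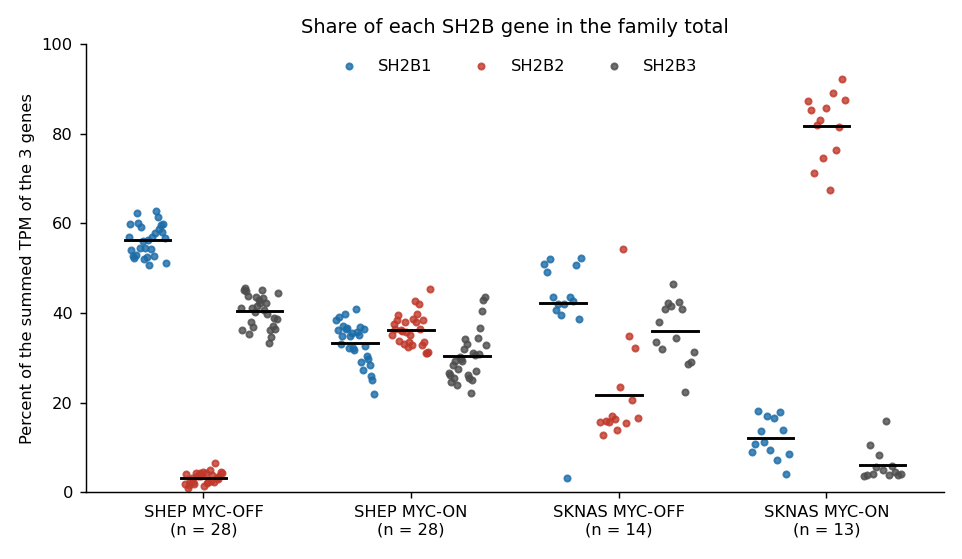
Percent of the summed TPM of SH2B1, SH2B2 and SH2B3 taken by each gene, in each of the 4 groups. Points are libraries and black bars group means. The SH2B2 share goes from 3.29% to 36.3% in SHEP and from 21.8% to 81.8% in SKNAS. Shares in SKNAS were not adjusted for the library median.

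The choice of genes did not use the difference between lines, so this was tested, as SKNAS minus SHEP at matched CTs. SH2B2 was higher in SKNAS in both conditions, SH2B1 was lower in both, and SH2B3 was lower in MYC-ON. For SH2B2 the log2 difference was 1.95 (SE 0.11, limma adjusted p = 4.71e-17) in MYC-OFF. In MYC-ON it was 1.82 (SE 0.090, limma adjusted p = 4.65e-18). Of all genes, 78.5% were called different between the lines in MYC-OFF (32.1% higher in SKNAS, 46.4% lower) and 84.3% in MYC-ON (26% higher, 58.3% lower), so a call in itself is common here. The size of the SH2B2 difference placed it at the 94.4th and 95th percentile of all genes. It stayed past the threshold under every alternative processing that was run, from 1.93 to 2.43 in MYC-OFF and from 1.69 to 2.32 in MYC-ON.

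SH2B1 differed by -0.66 (SE 0.24, limma adjusted p = 0.0133) in MYC-OFF, a call lost on leaving out either SHEP series, and by -0.82 (SE 0.16, limma adjusted p = 2.17e-05) in MYC-ON. These calls rested on the SKNAS libraries of low median. With SKNAS libraries of a median of at least 3.8 alone, the differences were 0.052 (limma adjusted p = 0.408) and -0.19 (limma adjusted p = 0.402). SH2B3 differed by -1.59 (SE 0.14, limma adjusted p = 1.80e-11) in MYC-ON, whereas in MYC-OFF the difference of -0.35 did not pass (95% interval -0.71 to 0.0041, limma adjusted p = 0.0655). With the same restriction the MYC-ON difference of SH2B3 was -0.49 (limma adjusted p = 0.00378), and with the library median as a covariate it was -0.59, while the MYC-OFF difference became 0.23 (limma adjusted p = 0.0293), higher in SKNAS. A line is represented by 1 or 2 experiments, so line and experiment cannot be told apart.

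Along the time course in SHEP, the gap between conditions narrowed for SH2B2 and widened for SH2B1. In MYC-OFF, SH2B2 averaged 1.34 ± 0.726 TPM over CT24 to CT36 and 2.35 ± 0.389 TPM over CT64 to CT76 (SD, n = 8 each). In MYC-ON it averaged 27.9 ± 3.56 TPM early and 22.2 ± 8.06 TPM late. The early and late libraries overlapped in both conditions, with 2.48 TPM already reached in MYC-OFF at CT28 and the highest MYC-ON value, 39.2 TPM, in the last library of series 2. The slope of SH2B2 in SHEP MYC-OFF was 0.31 log2 units per 24 h (SE 0.086, limma adjusted p = 0.0126), where 15.9% of genes had a called trend (5.78% upward, 10.1% downward). This call was lost without series 1 (0.26, limma adjusted p = 0.383) and without CT24 (0.26, limma adjusted p = 0.0822). In SHEP MYC-ON the slope was -0.18 (SE 0.084, limma adjusted p = 0.0677), short of the threshold, where 57.4% of genes had a called trend (20.5% upward, 37% downward). The slope in MYC-ON minus that in MYC-OFF was -0.49 (SE 0.12, limma adjusted p = 8.88e-04), and 43.4% of genes were called in this comparison (16.1% higher in MYC-ON, 27.3% lower). It remained past the threshold in each series alone, at -0.46 in series 1 (limma adjusted p = 0.00792) and -0.52 in series 2 (limma adjusted p = 0.0499).

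SH2B1 had no called trend in SHEP MYC-OFF, at 31.6 ± 3.18 TPM early and 32.5 ± 3.36 TPM late (SD, n = 8 each). In MYC-ON it went from 27.4 ± 2.12 TPM to 18.6 ± 4.85 TPM. The MYC-ON slope was -0.31 per 24 h (SE 0.065, limma adjusted p = 2.01e-04), and it differed from the MYC-OFF slope by -0.32 (SE 0.074, limma adjusted p = 3.35e-04). The decline was carried by series 2, in which SH2B1 dropped to 11.4 TPM at CT68 and 11.9 TPM at CT72, while series 1 stayed at or above 20.9 TPM. In series 1 alone the MYC-ON slope was -0.12 (limma adjusted p = 0.126) and the difference of slopes -0.11 (limma adjusted p = 0.364). SH2B3 rose slightly in SHEP MYC-ON, from 19.0 ± 1.41 TPM to 22.2 ± 3.20 TPM, with a slope of 0.14 (SE 0.048, limma adjusted p = 0.0150) that neither series passed alone. Its slopes in MYC-ON and MYC-OFF differed by 0.17 (SE 0.074, limma adjusted p = 0.0638).

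In SKNAS no member had a called trend or difference of trends. The slopes of SH2B1, SH2B2 and SH2B3 were -0.73, -0.19 and -0.76 per 24 h in MYC-OFF (limma adjusted p = 0.214, 0.255 and 0.131). No gene of 14119 passed in that group by limma, although 5144 had an unadjusted p under 0.05. In MYC-ON the slopes were -0.53, -0.26 and -0.32 (limma adjusted p = 0.616, 0.616 and 0.617), and 0.112% of genes passed (0.0299% upward, 0.0823% downward). The 95% intervals of the difference of slopes were wide, -0.45 to 0.30 for SH2B2, -1.05 to 1.46 for SH2B1 and -0.48 to 1.36 for SH2B3, and 0.0792% of genes passed in that comparison (0.0288% higher in MYC-ON, 0.0504% lower).

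No member passed a test of a 24 h rhythm in any of the 4 groups. By limma's F test the share of genes that passed was 0.0911% in MYC-OFF and 0.021% in MYC-ON of SHEP and 0% in either SKNAS group, where 63 genes in MYC-OFF and 46 in MYC-ON had an unadjusted p under 0.05. In SHEP MYC-OFF the fitted amplitudes were 0.027 log2 units for SH2B1, 0.027 for SH2B2 and 0.028 for SH2B3 (limma adjusted p = 0.904, 0.983 and 0.965), between the 16.4th and 17.5th percentile of all genes. In SHEP MYC-ON they were 0.18, 0.22 and 0.10 (limma adjusted p = 0.225, 0.409 and 0.558). The first 2 were at the 93.7th and 96.3rd percentile of amplitudes in that group. Amplitudes in SKNAS lay between 0.096 and 0.61, and their limma adjusted p was at least 0.993.

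The receptors and signalling proteins with which SH2B adaptors work mostly fell or did not pass. A list of 65 genes was read, of which 41 in SHEP and 39 in SKNAS had a mean of at least 1 TPM and were tested. In SHEP 2 were higher in MYC-ON, 29 lower and 10 not called, a median log2 change of -0.27 against -0.0364 over all genes. In SKNAS 1 was higher, 18 lower and 20 not called, a median of -0.56 against -0.287. Of 35 tested in both lines, 13 were lower in both and 0 higher in both. The share called, 75.6% in SHEP and 48.7% in SKNAS, was near that of all genes. By direction, 38.9% of all genes were lower and 33% higher in SHEP, and 34.4% and 13.7% in SKNAS. With SKNAS restricted to libraries of higher median (10 MYC-OFF, 3 MYC-ON), the difference rested on CT32 and CT44, with little power to call a change. In that fit 1254 genes were called in all, and 6 partners were lower and 2 higher. Rescaling the TPM by size factors moved the share of higher genes among all SKNAS calls from 28.5% to 53.6%, and 17 partners were then lower and 3 higher.

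Of 11 ligands, few were expressed, and those tested were lower in each line, 4 in SHEP and 2 in SKNAS. KITLG, the ligand of KIT, was the one tested in both, at log2 changes of -0.27 (SE 0.043, limma adjusted p = 1.96e-07) in SHEP and -1.29 (SE 0.21, limma adjusted p = 1.79e-04) in SKNAS. Among all tested genes, 38.9% fell and 33% rose in SHEP, and 34.4% fell and 13.7% rose in SKNAS. Of 11 receptors and Janus kinases tested in each line, 7 fell and 1 rose in SHEP. In SKNAS 8 fell and 0 rose (0 also at an unadjusted limma p under 0.05). The 3 with the largest fall by the smaller of the 2 changes were EPOR, the erythropoietin receptor, PDGFRB, a platelet-derived growth factor receptor, and JAK1, a kinase of cytokine receptors. EPOR went from 9.26 to 4.20 TPM in SHEP, a log2 change of -0.99 (limma adjusted p = 2.86e-24). Its mean in SKNAS was 9.64 TPM in MYC-OFF and 3.01 TPM in MYC-ON (-1.33, limma adjusted p = 1.44e-05). PDGFRB changed by -0.96 and -2.78 and JAK1 by -0.82 and -1.31.

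Of the insulin receptor family, IGF1R, the receptor for insulin-like growth factors, fell in both lines, by -0.62 (limma adjusted p = 1.28e-11) in SHEP and -1.02 (limma adjusted p = 0.0156) in SKNAS, where the call was lost with the library median as a covariate (-0.27). INSR, the insulin receptor, was low throughout. It was at 3.65 and 3.92 TPM in SHEP (log2 change 0.071, limma adjusted p = 0.466) and went from 1.79 to 0.707 TPM in SKNAS (-0.69, limma adjusted p = 0.0105, and -0.36 with that covariate, where it did not pass). JAK2, the kinase all 3 members are known to bind, stood at 3.39 and 3.13 TPM in SHEP and at 1.46 and 1.25 TPM in SKNAS, and its changes of -0.089 and -0.16 did not pass (limma adjusted p = 0.167 and 0.427). The SHEP change depended on the series, at -0.22 without series 1 (limma adjusted p = 0.0145, past the threshold) and 0.044 without series 2 (limma adjusted p = 0.612). LEPR, the leptin receptor, was named after its values were seen. It went from 2.81 ± 0.395 to 9.69 ± 3.12 TPM in SHEP (1.44, limma adjusted p = 5.44e-23), while in SKNAS its change of 0.46 did not pass (limma adjusted p = 0.188) except after rescaling by size factors (0.81), with the library median as a covariate (1.18) or in the libraries of higher median (1.11).

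Of 20 adaptors and effectors tested in SHEP, 15 fell and 0 rose, and of 19 in SKNAS 6 fell and 0 rose. The share that fell was 75% in SHEP, against 38.9% of all genes, and 31.6% in SKNAS, against 34.4%. Of all genes 33% rose in SHEP and 13.7% in SKNAS. At an unadjusted limma p under 0.05, 16 fell in SHEP and 11 in SKNAS, and still 0 rose in either. SOS2, an exchange factor that activates RAS, and the docking proteins GAB1 and GAB2 fell most when genes are ranked by the smaller of their changes in the 2 lines, SOS2 by -1.02 and -1.26, GAB1 by -0.38 and -1.53 and GAB2 by -0.33 and -0.99. The SHEP call of GAB1 was lost with the library median as a covariate (-0.19) and with 1 mean per series. In the SKNAS libraries of higher median alone, SOS2 (-0.74), GAB1 (-0.89) and GAB2 (-0.88) did not pass, nor did KITLG (-0.83) and JAK1 (-0.66). That fit rested on CT32 and CT44 and had little power, so a lost call there says little. CBL, the ubiquitin ligase recruited by SH2B2, went from 15.5 to 12.8 TPM in SHEP (-0.24, limma adjusted p = 0.00383). With the library median as a covariate this value was 0.022, so its direction was not stable. The SKNAS change of CBL, -0.44, did not pass (limma adjusted p = 0.0808). IRS1, the docking protein of the insulin receptor, fell by -0.97 in SHEP (limma adjusted p = 1.29e-17), with a SKNAS change of -0.31 that did not pass (limma adjusted p = 0.222).

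Of 10 genes listed as brakes on the same receptors, 6 were tested in SHEP and 7 in SKNAS. SOCS1, an inhibitor of Janus kinases, fell in both lines, by -1.45 (limma adjusted p = 5.14e-23) and -0.51 (limma adjusted p = 0.0129), and the second call was lost in 4 of 5 alternatives, for example after rescaling by size factors (-0.25). The members of this list that rose were different in the 2 lines and were named after their values were seen. PTPN11, a phosphatase that was put in this list but is not only a brake, rose by 0.22 in SHEP (limma adjusted p = 8.30e-06). GRB14, an inhibitor of the insulin receptor, went from 1.89 ± 0.849 to 17.0 ± 6.52 TPM in SKNAS (2.59, limma adjusted p = 2.42e-08), and in SHEP it was under the filter, at 0.437 and 1.43 TPM.

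**Figure D5:**
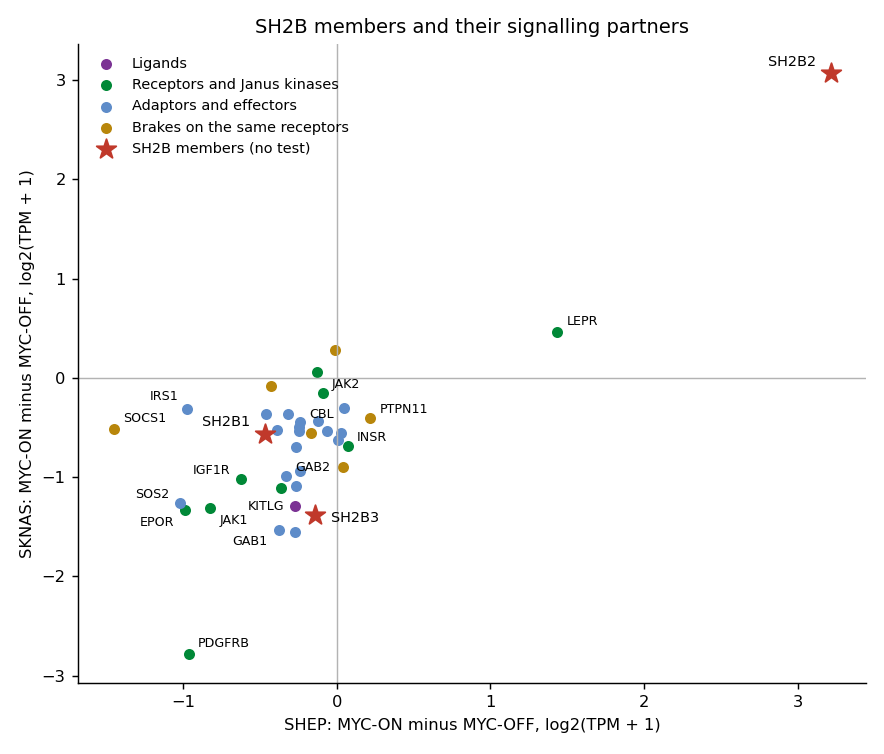
MYC-ON minus MYC-OFF on the log2(TPM + 1) scale in SHEP (horizontal) and SKNAS (vertical) for the 35 partner genes tested in both lines, coloured by list, with the 3 SH2B members as stars. SH2B2, which was chosen for this difference, stands at 3.21 and 3.07, apart from these 35 partners, of which 13 were lower in both lines. GRB14, at 2.59 in SKNAS, was under the filter in SHEP and is not drawn.

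The genes nearest SH2B2 on chromosome 7 are given as a description, since SH2B2 was chosen for its large rise. The starts of the 3 nearest tested genes on each side lay from -1046 kb (FIS1) to 148 kb (ORAI2) from its own. These genes changed by -1.24 to 0.99 in SHEP and by -1.15 to 0.24 in SKNAS. Of all genes, 33% were higher and 38.9% lower in SHEP, and 13.7% higher and 34.4% lower in SKNAS. CUX1, a transcription factor gene on the same strand that ends at base 102283958, just before SH2B2 begins, fell in both lines, by -0.80 in SHEP (SE 0.071, limma adjusted p = 5.64e-14) and by -0.98 in SKNAS (SE 0.21, limma adjusted p = 0.00140). ORAI2, a calcium channel gene on the far side, fell by -1.24 (limma adjusted p = 9.41e-23) and -1.15 (limma adjusted p = 0.00878). IFT22, a ciliary transport gene, fell by -0.38 and -0.70, the second call being lost after rescaling by size factors (-0.34). As deposited, PRKRIP1 alone rose in both lines, by 0.25 (limma adjusted p = 1.69e-09) and 0.24 (limma adjusted p = 0.0437). Its SHEP call was lost with 1 mean per series. The pseudogene AC091390.4 rose by 0.99 in SHEP, with 0.17 in SKNAS that did not pass (limma adjusted p = 0.278) except after rescaling (0.50). FIS1, a mitochondrial fission gene, fell by -0.49 in SHEP, and its SKNAS change of 0.090 did not pass (limma adjusted p = 0.741).

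Around SH2B1, with starts from -24.2 kb to 57.8 kb, 2 of 6 neighbours rose and 1 fell in SHEP, and 1 rose in SKNAS. Here too the shares over all genes were 33% higher and 38.9% lower in SHEP, and 13.7% and 34.4% in SKNAS. TUFM, a mitochondrial translation factor gene that starts just before SH2B1 and runs the other way on the opposite strand, rose in both lines, by 0.86 (limma adjusted p = 2.70e-33) and 0.60 (limma adjusted p = 1.21e-04). In SHEP, ATXN2L rose by 0.21, a call lost with 1 mean per series, and RABEP2 fell by -1.17. AC145285.6, ATP2A1-AS1 and ATP2A1 did not pass in either line. ATP2A1 and its antisense gene overlap and may share reads. The neighbours of SH2B3 lay further off, with starts from -792 kb (TCTN1) to 280 kb (ACAD10). Of these 6, 4 rose in SHEP by at most 0.48 (TCTN1, PPP1CC, ATXN2 and BRAP). None of these 4 passed in SKNAS as deposited (-0.087 for TCTN1, -0.10 for PPP1CC, -0.20 for ATXN2 and -0.068 for BRAP). After rescaling by size factors PPP1CC (0.27) and BRAP (0.29) passed there, and with the library median as a covariate BRAP (0.29) and, in the opposite direction to SHEP, TCTN1 (-0.24). With 1 mean per series the SHEP calls of PPP1CC, ATXN2 and BRAP were lost, and that of BRAP also without series 2. PHETA1 fell in both lines, by -0.42 and -0.77, the second with a limma adjusted p of 0.0373 that was lost in all 5 alternatives, and ACAD10 did not pass in either. In the SKNAS libraries of higher median alone, none of the 6 neighbours called in SKNAS passed, with the same directions. That fit rested on CT32 and CT44 and had little power to call a change.

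By Pearson correlation on log2(TPM + 1), the genes most like SH2B2 over the 56 SHEP and the 27 SKNAS libraries were EPOP (r = 0.975 and 0.980), RPIA, HHEX, TEAD4 and GRPEL1 (0.958 to 0.978 over both lines). All 5 rose in both lines, by 1.04 to 2.67. Within conditions, after removing the group means, the correlations of these genes with SH2B2 dropped to between -0.18 and 0.56 in SHEP and 0.40 and 0.62 in SKNAS, so most of the likeness came from the shared rise. The genes most like SH2B1 were NCKAP5L, SCAF1, ARHGDIA, LZTS2 and ST6GALNAC6 (r = 0.904 to 0.981), which kept correlations of 0.81 to 0.84 within SHEP conditions and 0.95 to 0.98 within SKNAS conditions. For SH2B3 they were LIX1L, RHBDF2, EPHA2, ITGA2 and ICAM1, with r of only 0.58 to 0.60 in SHEP and 0.74 to 0.96 in SKNAS. Libraries of 1 series share their experiment, and SKNAS values also share the library median.

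Other markers were read as a check. MYCN, which takes up the reads of the N-MYC-ER transcript, was at 555 and 377 TPM in SHEP and at 547 and 365 TPM in SKNAS, in MYC-OFF and MYC-ON. MYC, the endogenous paralog, went from 11.3 to 2.56 TPM and from 15.0 to 1.65 TPM. SHEP had 2 of 7 adrenergic neuroblastoma markers at 1 TPM or more, HAND2 (15.7 and 26.6 TPM) and GATA3 (17.1 and 18.7 TPM), with PHOX2A, DBH and TH under 0.1 TPM, and at least 5 of 6 mesenchymal markers at 1 TPM or more. SKNAS had 4 of 7 adrenergic and 6 of 6 mesenchymal markers at 1 TPM or more, and the summed adrenergic level was 261 to 588 TPM in MYC-OFF and 82.2 to 254 TPM in MYC-ON. Of 4 blood markers, only PTPRC was at 1 TPM or more, in SKNAS (80.4 TPM in MYC-OFF, 21.5 TPM in MYC-ON), with CD3E at 0. Of 2 epithelial markers KRT8 was at 137 TPM or more in every group mean and EPCAM at no more than 1.16 TPM, and the 2 endothelial and 3 glial markers had group means under 1 TPM. The part of these marker shifts in the SH2B values was not tested, and in such bulk RNA fewer cells of a kind and less RNA per cell cannot be told apart.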

How the data were processed

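The authors quantified reads of poly-A enriched RNA with Salmon 1.3.0 on GRCh38, per the labels, and deposited gene-level TPM. Every column sums to 1e+06, so the depth of each library is unknown and no counting error can be given. No table of counts was used here, so limma 3.58.1 (R 4.3.3), fitted to log2(TPM + 1), took the place of the count-based test in the study's methods. Genes with a mean of at least 1 TPM over the libraries of a fit were kept, and p-values were adjusted by Benjamini-Hochberg over all of them.

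All 3 members passed the filter in every fit. Condition and line effects had CT as a factor and were called at an adjusted p of 0.05 or less with a log2 change of 0.15 or more. Trends were linear slopes per 24 h with the series as a factor in SHEP, and rhythms were cosine and sine terms at 24 h beside a linear trend of each series. The fixed 24 h period stands in for the oscillator fit of the study. Fits were tested on simulated data with independent noise, in which 200 genes were given an effect of 1 log2 unit. The MYC effect was recovered for 99.5% of them in SHEP and 70.5% in SKNAS. Recovery in SKNAS MYC-OFF and MYC-ON was 67.5% and 53.5% for trends and 51% and 49.5% for rhythms. For the SKNAS difference of slopes it was 40.5%, against 99% in SHEP. False calls were 1.54% to 8.33% of all calls. As recovery in SKNAS was partial, trends and rhythms that did not pass there may have been missed. Effects under 1 log2 unit were not simulated, so the recovery of smaller ones is unknown in both lines.

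The members and lists were chosen with earlier results of these data known. Partners, neighbours (3 tested genes on each side by start), the 5 most correlated genes, and the markers were set by rule. From each partner list, INSR, IGF1R, JAK2, CBL, IRS1 and the 3 genes with the largest change shared by both lines were named. One further gene of that rule, a marker and a sequence are not reported here. Coordinates came from Gencode 44 and promoter sequences from RefSeq (GRCh38.p14), where all 3 members had a match. No 2 libraries were identical. Alternatives were another pseudocount, no filter, median-of-ratios rescaling, the library median as a covariate, series left out, series means, SKNAS libraries of higher median and CT24 left out. Leaving out SKNAS MYC-OFF CT56 or MYC-ON CT68 was added after seeing the data. The study's further cell line and repeat SKNAS experiment were not analysed here.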

Additional observations from a re-analysis of the deposited data

Results flagged for a closer look

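In SHEP, the slope of SH2B1 over the time course differed between MYC-ON and MYC-OFF by -0.32 log2 units per 24 h (limma adjusted p = 3.35e-04). It is listed here because a test of the difference itself, MYC-ON minus MYC-OFF, passed. The slope was 0.014 in MYC-OFF, which did not pass (limma adjusted p = 0.830), and -0.31 in MYC-ON. Series 1 alone gave a difference of -0.11, which did not pass, against -0.54 in series 2.

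The slope of SH2B2 differed between the conditions by -0.49 log2 units per 24 h (limma adjusted p = 8.88e-04) for the same reason. It was 0.31 in MYC-OFF and -0.18 in MYC-ON, and the 2 series gave -0.46 and -0.52. On the log2(TPM + 0.1) scale the difference was -0.68.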

How the results depend on the processing

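The SH2B2 difference between MYC-ON and MYC-OFF kept its direction under the alternatives run, from 3.18 to 3.77 in SHEP, the highest with log2(TPM + 0.1), and from 3.07 to 3.43 in SKNAS, the highest after rescaling. Its line difference kept its call throughout. Limits are the unknown depth, the single SKNAS experiment, and the SKNAS library medians, which differed between conditions. The causes of the changes below were not tested.

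With the library median as a covariate, SH2B1 in SKNAS changed sign to 0.15, its line difference became -0.027 (limma adjusted p = 0.861) in MYC-OFF and 0.047 (limma adjusted p = 0.830) in MYC-ON, CBL in SHEP became 0.022 and BRAP in SKNAS 0.29. Rescaling gave 0.27 for PPP1CC and 0.29 for BRAP in SKNAS. With SKNAS libraries of a median of at least 3.8 alone, the line differences were 0.052 for SH2B1 and 0.23 for SH2B3 in MYC-OFF and -0.19 for SH2B1 in MYC-ON. In those libraries 1254 genes were called for the SKNAS MYC effect, which rested on CT32 and CT44 alone. Higher partners numbered 4 in SHEP and 3 in SKNAS with no filter, and in SKNAS 3 after rescaling, 5 with the covariate and 2 in the libraries of higher median, where 6 were lower. With 1 mean per series 1 partner was higher in SHEP. Of all genes called in SKNAS, 28.5% were higher, against 53.6% after rescaling and 52% with the covariate, and the median change moved from -0.287 to 0.032 and 0.0134.

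For SHEP trends, leaving out CT24 gave 0.26 for SH2B2 in MYC-OFF (limma adjusted p = 0.0822) and -0.24 in MYC-ON (limma adjusted p = 0.0300, past the threshold). The difference of slopes of SH2B3 passed after rescaling, at 0.20 (limma adjusted p = 0.0139), and with the covariate, at 0.24 (limma adjusted p = 0.00378). Leaving out 1 SHEP series at a time gave 1 to 3 higher partners, a MYC-OFF line difference of SH2B1 of -0.71 to -0.61 with the call lost both times (limma adjusted p = 0.0632 and 0.109), MYC-OFF slopes of SH2B2 of 0.26 to 0.37 with 248 to 1620 genes called, MYC-ON slopes of SH2B1 of -0.49 to -0.12 and of SH2B3 of 0.13 to 0.15, differences of slopes of SH2B1 of -0.54 to -0.11, and 0 rhythmic genes in either SHEP group.

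Counts of genes with a called trend in SKNAS MYC-OFF were 1 with no filter, 6 after rescaling and 12 with the covariate. In SKNAS MYC-ON they were 171 with the covariate, 2 without CT24 and 3 without CT68. For the SKNAS difference of slopes they were 18 after rescaling, 113 with the covariate and 2 without CT24. Rhythmic genes were 7 with no filter and 5 after rescaling in SHEP MYC-OFF, and 5 with no filter in SHEP MYC-ON.

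The labels do not say what MYC-OFF and MYC-ON libraries of the same SHEP series number share. Over 14362 genes, the difference of series 1 from series 2 in MYC-OFF and in MYC-ON correlated at 0.49. With the replicate block, the MYC effect in SHEP stayed at 3.21 for SH2B2, -0.47 for SH2B1 and -0.14 for SH2B3, and 10370 genes were called against 10314. With no replicate block, the differences of slopes in SHEP stayed at -0.32, -0.49 and 0.17, and 5723 genes were called against 6233. SKNAS has 1 series, so no block could be fitted there.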
